A study of Mus musculus with 8 samples.

Results

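Transcripts of mast cell and eosinophil granule genes were examined in stroke infarcts of aged mice. The group holds 10 of the 46078 gene identifiers in the count tables. *Prg2* was chosen by its measured fall after cyclodextrin in these same libraries, and the other 9 genes were chosen as known products of mast cells (*Cma1*, *Mcpt4*, *Tpsb2*, *Cpa3*, *Kit*, *Fcer1a*, *Ms4a2*, *Hdc*) or eosinophils (*Epx*). The question asked of *Prg2* was whether it varied with eosinophil, mast cell or plasma cell genes from library to library.

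The animals were wild type C57BL/6J males aged 18 months. All 8 underwent DH stroke, that is, occlusion of a distal part of the middle cerebral artery followed by a period of hypoxia. From week 1 after stroke they were injected under the skin 3 times per week for 6 weeks, either with PBS (vehicle, n = 4) or with 4 g/kg 2-hydroxypropyl-β-cyclodextrin (HPβCD, n = 4). HPβCD is a ring of modified glucose units used as a carrier for cholesterol. Infarcts were excised by hand at 7 weeks after stroke, so the amount of adjoining tissue was not fixed.

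Mast cells live in tissues, including the meninges and the surroundings of brain vessels, and carry preformed granules. When antigen crosslinks IgE on their high-affinity receptor, the granules release histamine, chymases, tryptases and carboxypeptidase bound to heparin. Eosinophils are blood granulocytes that mature under interleukin 5 and whose granules hold major basic protein, the product of *Prg2*, and eosinophil peroxidase, the product of *Epx*. Plasma cells are the antibody-secreting end stage of B lymphocytes and are marked by the joining chain of secreted antibodies, *Jchain*.

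Several of these genes have close relatives, and the stretches below show how far reads of 75 bases could tell them apart. For each of 3 pairs, the 75 coding bases in which the pair was most alike are given 5′ to 3′ on the gene's own strand, from GENCODE M21 transcripts on GRCm38, with the bases that differ between the members of a pair in capitals.
Prg2: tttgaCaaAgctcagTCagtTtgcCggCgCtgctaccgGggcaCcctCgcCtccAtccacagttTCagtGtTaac
Prg3: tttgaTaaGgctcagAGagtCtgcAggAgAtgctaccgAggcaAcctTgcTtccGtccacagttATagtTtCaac
Cma1: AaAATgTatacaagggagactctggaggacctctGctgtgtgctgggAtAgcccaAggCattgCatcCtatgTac
Mcpt4: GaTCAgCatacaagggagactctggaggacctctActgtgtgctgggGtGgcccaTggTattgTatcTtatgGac
Tpsb2: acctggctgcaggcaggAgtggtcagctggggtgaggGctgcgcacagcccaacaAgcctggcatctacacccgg
Tpsab1: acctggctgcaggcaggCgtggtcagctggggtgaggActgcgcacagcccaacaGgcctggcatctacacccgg

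*Prg2* and its neighbor *Prg3*, which encodes a second form of major basic protein, differed at 17 of 75 bases even in this most similar stretch. The chymase genes *Cma1* and *Mcpt4* differed at 13, and the tryptase genes *Tpsb2* and *Tpsab1* at 3. Over every 75-base window of the annotated transcripts, *Prg2* shared 0 of 764 windows with any other gene. *Cma1* shared 17 of 1016 with *Gm48934*, *Mcpt4* 26 of 1034 with *Cma2*, and *Ms4a2* 38 of 3103 with *Ms4a4b*. *Epx*, *Tpsb2*, *Cpa3*, *Kit*, *Fcer1a* and *Hdc* shared none. None of the 10 genes had an exon overlapping an exon of another gene. The *Prg2* stretch crosses an exon junction on chromosome 2 (chr2:84982302-84982648, plus strand), the *Cma1* stretch crosses one on chromosome 14 (chr14:55941737-55942139, minus strand), and the *Tpsb2* stretch lies within a single exon (chr17:25367721-25367795, plus strand). The *Prg3* stretch (chr2:84989518-84991461, plus strand) and the *Mcpt4* stretch (chr14:56060040-56060509, minus strand) also cross a junction, and the *Tpsab1* stretch (chr17:25343470-25343544, minus strand) lies within an exon.

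Gene counts totaled 16.6 M to 32.9 M per library, with vehicle animal 2 the deepest. Levels are given in CPM, the reads of a gene scaled to a common library size with the library total and its TMM factor. Neuron transcripts stood high in 2 of the libraries. *Snap25*, a protein of the synaptic release machinery, reached 3016 CPM in the library of vehicle animal 3 and 334 CPM in that of vehicle animal 1, while the remaining 6 held 0.917 to 29.9 CPM. The 16 plasma cell genes summed to 1823 to 3473 CPM in vehicle libraries and to 927 to 1221 CPM in HPβCD libraries. Of these sums *Jchain* alone made up 856 to 2179 CPM in vehicle and 40.9 to 228 CPM in HPβCD libraries. The gap between the sums is therefore no drop across all 16 genes. The 10 B lymphocyte genes summed to 221 to 666 CPM in vehicle and 148 to 269 CPM in HPβCD libraries. The part that these cells played in the values below was not tested. Bulk tissue cannot tell fewer cells of a type from less RNA in each cell.

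*Prg2* (ENSMUSG00000027073, chr2:84980461-84983632, plus strand, 6 exons) is described first. Vehicle animals 1 to 4 had 82, 157, 124 and 103 reads, or 4.63, 4.50, 7.49 and 5.53 CPM. HPβCD animals 1 to 4 had 20, 4, 7 and 5 reads, or 1.15, 0.24, 0.37 and 0.28 CPM. The lowest vehicle library thus lay above the highest HPβCD library, and HPβCD animal 1 was the highest of its group. The means were 5.54 ± 1.38 CPM and 0.511 ± 0.428 CPM (SD, n = 4 each), a ratio of 10.8, and the fitted log2 fold change was -3.42. Without HPβCD animal 1 the fitted value was -4.17, and without vehicle animals 1 and 3, the libraries high in neuron transcripts, it was -3.26. These values chose the gene and are therefore given without a test. For scale, edgeR's quasi-likelihood test called 1.95% of all 14736 tested genes changed at an adjusted p of 0.05, 0.774% of them lower after HPβCD, and in 16.8% the groups did not overlap.

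The other eosinophil granule gene was at the limit of detection. *Epx* (chr11:87864000-87875536) had 12, 1, 3 and 0 reads in vehicle animals 1 to 4 and 1, 0, 2 and 1 reads in HPβCD animals 1 to 4. Only vehicle animal 1 exceeded 3 reads, with an exact Poisson interval of 6.20 to 21.0, and the groups overlapped. A count of 0 allows up to 3 reads per library by a one-sided limit. *Epx* did not pass the filter on low counts. In a fit without that filter its log2 fold change was -1.77 (95% confidence interval -4.45 to 0.90), an interval that holds both 0 and the value of *Prg2*. In vehicle animal 2 *Prg2* had 157 reads and *Epx* 1.

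Further eosinophil genes ranged from near 0 to well measured. *Prg3* had at most 2 reads in any library. *Ear1* and *Ear6*, ribonucleases of eosinophil granules, had at most 3 and 1. *Ccr3*, the eotaxin receptor, had 10, 42, 5 and 13 reads in vehicle and 7, 5, 5 and 5 reads in HPβCD libraries and did not pass the filter. *Siglecf*, a sialic acid receptor on eosinophils that is also present on some macrophages, averaged 1.55 ± 0.57 CPM over vehicle and 1.6 ± 0.59 CPM over HPβCD animals (SD, n = 4 each), with a log2 fold change of 0.036 (SE 0.38, adjusted p = 0.963 by edgeR), and with TMM factors omitted the value was -0.059. *Ear2*, a ribonuclease of the same family, had a log2 fold change of -0.32 (SE 0.55, adjusted p = 0.752 by edgeR). Of the 12 eosinophil genes in the tables besides *Prg2* and *Epx*, 5 were tested and 1 was called lower by edgeR (2 by DESeq2), with a median log2 fold change of -0.32 against -0.045 over all tested genes.

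The called gene was *Adgre4*, an adhesion receptor also known from monocytes and macrophages. It was at 25.1, 44.1, 6.83 and 10.8 CPM in vehicle animals 1 to 4 and at 3.15, 1.77, 2.52 and 2.55 CPM in HPβCD animals 1 to 4. Every vehicle library lay above every HPβCD library, and the log2 fold change was -3.12 (SE 0.58, adjusted p = 0.0483 by edgeR). *Il5ra*, picked out after its values were seen, encodes the interleukin 5 receptor of eosinophils, which mouse B-1 lymphocytes also carry. It had 34, 145, 15 and 32 reads in vehicle and 12, 1, 5 and 3 reads in HPβCD libraries, and its log2 fold change of -2.87 (95% confidence interval -4.41 to -1.33) had an edgeR adjusted p of 0.0624.

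**Figure D1:**
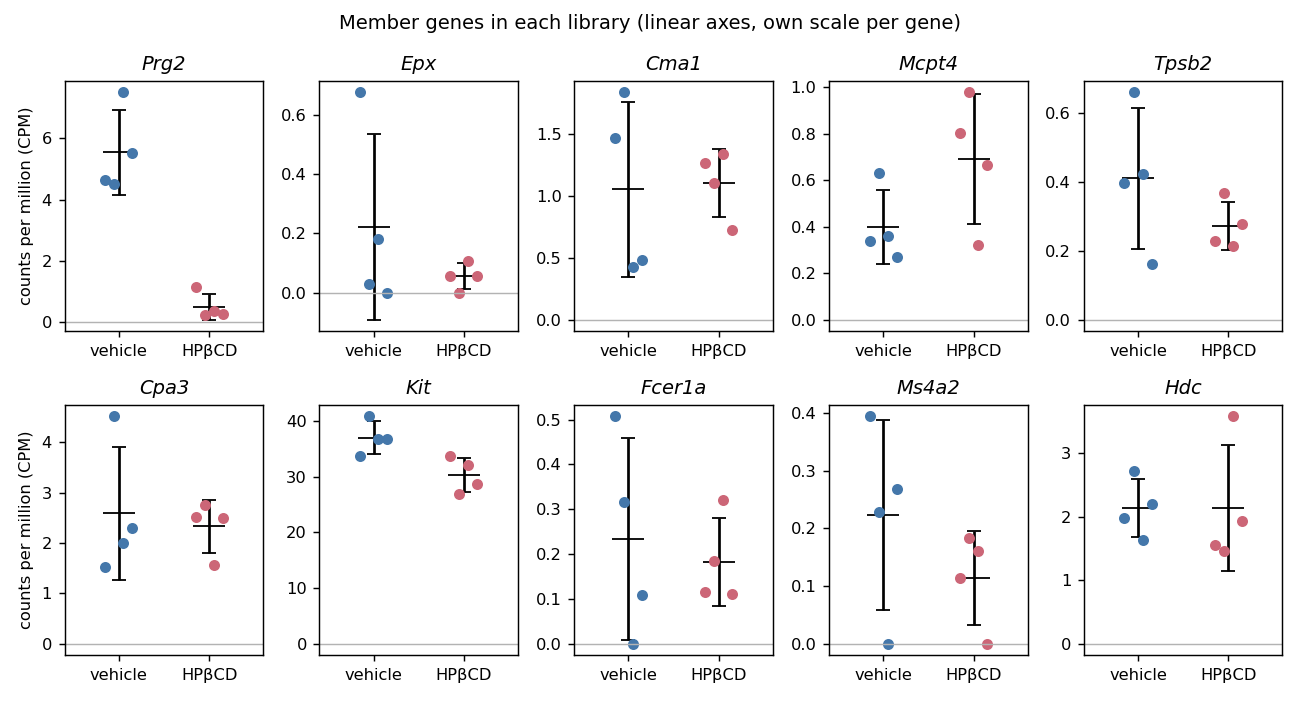
Level of each of the 10 genes in each library, in CPM on linear axes that differ between genes. Blue points are the 4 vehicle animals and red points the 4 HPβCD animals, in the order 1 to 4 from left to right, with black lines for the mean and its SD. *Prg2* separates the groups (4.50 to 7.49 against 0.24 to 1.15 CPM), *Kit* does so by 0.0962 CPM, and the points of the other 8 genes overlap.

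Mast cell transcripts were present in infarcts of both groups, at low levels apart from *Kit*. Of the 8 mast cell genes, 5 passed the filter on low counts (*Cma1*, *Mcpt4*, *Cpa3*, *Kit*, *Hdc*), and none of these was called changed by edgeR's quasi-likelihood test, against 1.95% of all tested genes. DESeq2, which called 17.9% of the 14638 genes it adjusted, also called 0 of the 5, as did limma-voom. At an unadjusted p of 0.05 edgeR and DESeq2 had 0 of the 5 and limma-voom 1. Over all 14736 tested genes they had 4092 (edgeR), 4237 (DESeq2) and 3408 (limma-voom), so these counts say little about 5 genes. The median log2 fold change of the 5 genes was -0.0017, within a range of -0.29 to 0.73.

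The proteases of connective tissue mast cell granules came first. *Cma1* (chymase 1, chr14:55941451-55944675) was at 1.47, 1.83, 0.42 and 0.48 CPM in vehicle animals 1 to 4 and at 1.26, 1.10, 1.34 and 0.72 CPM in HPβCD animals 1 to 4. Vehicle animals 1 and 2 were the highest and vehicle animals 3 and 4 the lowest of all 8, so that the HPβCD libraries lay between them. The log2 fold change was 0.040 (SE 0.50, 95% confidence interval -1.10 to 1.18, adjusted p = 0.969 by edgeR), and its sign turned in several of the alternatives run.

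*Mcpt4* (chr14:56059629-56062313), a chymase that degrades matrix proteins and cytokines, was at 0.34, 0.63, 0.36 and 0.27 CPM in vehicle and at 0.80, 0.98, 0.32 and 0.66 CPM in HPβCD animals. HPβCD animals 1, 2 and 4 lay above all vehicle libraries and HPβCD animal 3 within them. The log2 fold change was 0.73 (SE 0.44, 95% confidence interval -0.26 to 1.72, adjusted p = 0.313 by edgeR). *Tpsb2* (chr17:25366305-25369098), the tryptase of mast cell granules, had 7, 23, 7 and 3 reads in vehicle and 4, 6, 4 and 5 reads in HPβCD libraries and was not tested. In the fit without a filter its log2 fold change was -0.58 (95% confidence interval -1.82 to 0.66).

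*Cpa3* (chr3:20215620-20242181), the carboxypeptidase stored with the chymases, was the best measured of the granule proteases. Vehicle animals had 1.52, 4.52, 1.99 and 2.31 CPM and HPβCD animals 2.52, 2.75, 1.55 and 2.49 CPM. The groups overlapped, with vehicle animal 2 the highest and vehicle animal 1 the lowest library. The log2 fold change was -0.17 (SE 0.37, 95% confidence interval -1.01 to 0.67, adjusted p = 0.810 by edgeR), and without vehicle animal 2 it was 0.27. Between animals of the same group, *Cpa3* and *Mcpt4* deviated together (group-centered Pearson r = 0.79 over 8 libraries), whereas *Cpa3* and *Cma1* had an r of 0.24. These are descriptions of 8 libraries, with counting error that is large at such low levels.

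The receptors of mast cells were measured next. *Kit* (chr5:75574916-75656722), the receptor for stem cell factor on which mast cells depend, was at 33.8, 41.0, 36.8 and 36.8 CPM in vehicle and at 33.7, 26.9, 32.1 and 28.7 CPM in HPβCD animals. The groups did not overlap, but the gap between the lowest vehicle and the highest HPβCD library was 0.0962 CPM. It was the only other member without overlap, 1 of 5 tested against 16.8% of all genes. The log2 fold change was -0.29 (SE 0.13, 95% confidence interval -0.59 to 0.01, adjusted p = 0.193 by edgeR), and the adjusted p lay between 0.136 and 0.425 under all alternatives run. Neurons and melanocytes can express *Kit* too. Without vehicle animals 1 and 3, the libraries with most *Snap25*, the log2 fold change was -0.34. The 10 melanocyte genes summed to 36.5 to 77.5 CPM in vehicle and 61.7 to 91.6 CPM in HPβCD libraries. In summed reads of the vehicle and HPβCD libraries, *Mlana* had 74 and 568, *Pmel* 66 and 92 and *Mitf* 4785 and 4218. *Sox10* had 809 and 233 and *Dct* 55 and 30. The log2 fold changes, which take depth into account, were 3.18, 0.81, 0.22, -1.60 and -0.62 in that order. *Tyr* was at 0 in all libraries and *Tyrp1* had 1 read in 1 library. The part of either cell type in the *Kit* values was not tested.

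*Fcer1a* (chr1:173221284-173227214), the IgE-binding chain of the high-affinity receptor, had 9, 11, 0 and 2 reads in vehicle and 2, 3, 6 and 2 reads in HPβCD libraries. *Ms4a2* (chr19:11615523-11623719), its signal-amplifying beta chain, had 7, 8, 0 and 5 reads in vehicle and 2, 3, 3 and 0 reads in HPβCD libraries. By reads both genes were highest in vehicle animals 1 and 2, the latter the deepest library, and at 0 in vehicle animal 3. In CPM *Fcer1a* was higher in HPβCD animal 3 (0.321) than in vehicle animal 2 (0.315). *Ms4a2* was higher in vehicle animal 4 (0.268) than in vehicle animal 2 (0.229). The groups overlapped for both genes. Neither was tested, and the fit without a filter gave log2 fold changes of -0.34 (95% confidence interval -2.24 to 1.56) and -0.91 (-3.04 to 1.21).

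*Hdc* (chr2:126593667-126619299), the enzyme that makes histamine from histidine, was at 1.98, 2.72, 1.63 and 2.20 CPM in vehicle and at 1.55, 1.47, 3.59 and 1.94 CPM in HPβCD animals. HPβCD animal 3 was the highest library and the remaining HPβCD libraries lay below the vehicle mean of 2.13 CPM. The log2 fold change was -0.0017 (SE 0.34, 95% confidence interval -0.77 to 0.76, adjusted p = 0.998 by edgeR), with a sign that changed with the scaling. Neurons of the hypothalamus also make histamine. Vehicle animals 3 and 1, which had most *Snap25*, were at 1.63 and 1.98 CPM, and the part of neurons in the *Hdc* values was not tested.

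Set on a scale per length of exons (CPM per kb), *Prg2* was the highest of the 10 genes in vehicle infarcts, at 6.61 (5.37 to 8.94), followed by *Kit* at 4.16 (3.79 to 4.60) and *Cpa3* at 1.71 (1.00 to 2.98). Below these came *Cma1* at 0.965, *Mcpt4* at 0.361, *Hdc* at 0.334, *Tpsb2* at 0.257, *Fcer1a* at 0.233, *Epx* at 0.0810 and *Ms4a2* at 0.0793 CPM per kb. Only the steps from *Prg2* to *Kit* and from *Kit* to *Cpa3* were free of overlap between libraries. In HPβCD infarcts *Kit* led at 3.41 (3.02 to 3.78) and *Cpa3* followed at 1.54 (1.02 to 1.81), while *Prg2* at 0.609 (0.292 to 1.37) overlapped with *Cpa3*, *Cma1*, *Mcpt4*, *Hdc* and *Fcer1a*.

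To see which genes *Prg2* followed apart from the group difference that chose it, log2 CPM values were centered on the mean of each group and compared over the 8 libraries. A relation to *Epx* could not be measured, since 7 of 8 libraries had 3 or fewer *Epx* reads. For *Cpa3*, the mast cell gene, Pearson's r was -0.09 (exact permutation within groups, two-sided, p = 0.736) and Spearman's rho -0.33 (exact permutation p = 0.401). For *Jchain*, the plasma cell gene, r was 0.76 (exact permutation p = 0.118, adjusted over the 2 measurable relations 0.236) and rho 0.45 (exact permutation p = 0.347, adjusted 0.401). Without the 2 libraries farthest from the median of *Jchain*, HPβCD animals 2 and 3, r was 0.67 (exact permutation p = 0.438). Without the 2 farthest for *Cpa3*, vehicle animals 2 and 1, it was -0.01 (exact permutation p = 0.979). Neither relation passed the test.

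The value for *Jchain* rested on 1 animal. HPβCD animal 1 lay 1.24 above its group mean for *Prg2* and 1.55 above it for *Jchain* on the log2 scale. Without this animal r for *Jchain* was 0.08, and over the 4 vehicle libraries, where *Jchain* was highest in animal 2 and *Prg2* in animal 3, it was 0.10.

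*Bhlha15* was closer. It encodes a transcription factor (Mist1) that secretory cells such as plasma cells use to enlarge their secretory apparatus, and it was singled out after its values were seen. It had 51, 79, 96 and 55 reads in vehicle and 13, 2, 2 and 3 reads in HPβCD libraries. In CPM the order of the vehicle animals was 3, 4, 1, 2 for both *Bhlha15* (5.80, 2.95, 2.88 and 2.26) and *Prg2*, and HPβCD animal 1 was the highest of its group for both. The *Bhlha15* values of animals 4 and 1 differed by less than counting error. So did the *Prg2* values of animals 1 and 2 (4.63 and 4.50 CPM from 82 and 157 reads). Vehicle animal 3 was the highest for both genes, and the order of the other vehicle animals is not well resolved. The group-centered r was 0.93 and rho 0.74 over 8 libraries, and without HPβCD animal 1 they were 0.73 and 0.68. Of all 14735 genes 0.109% had an r over 0.9. Counts of 2 or 3 reads of *Bhlha15* in 3 of the HPβCD libraries leave the order within that group undefined.

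**Figure D2:**
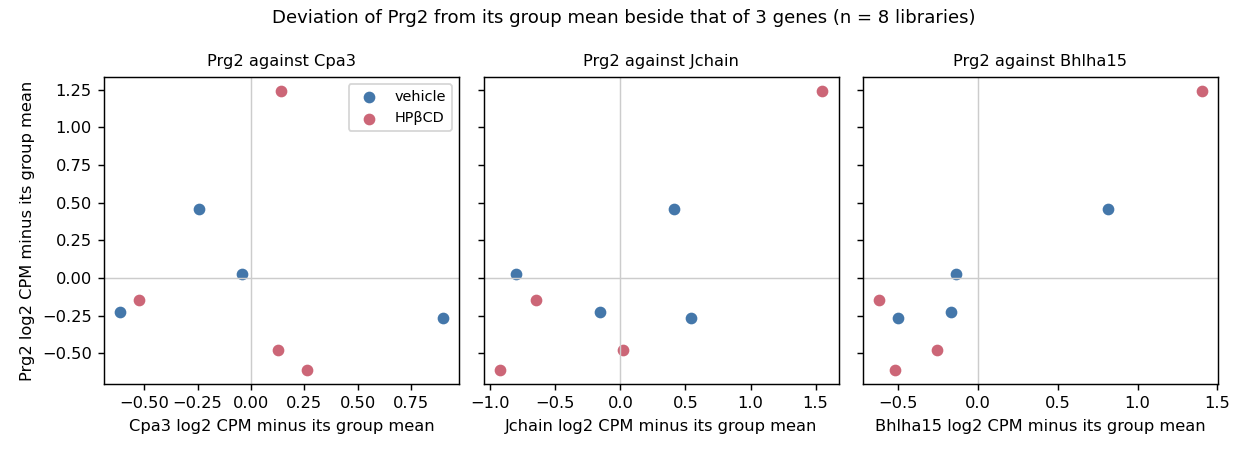
Deviation of *Prg2* from its group mean (vertical, log2 CPM) against that of *Cpa3*, *Jchain* and *Bhlha15* (horizontal, log2 CPM), with blue points for vehicle and red for HPβCD animals. The red point at the top of each panel is HPβCD animal 1, at 1.24 on the vertical axis. The points spread without direction for *Cpa3* (r = -0.09) and rise together for *Bhlha15* (r = 0.93).

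Over whole lists, the median group-centered r with *Prg2* was 0.37 for the 16 plasma cell genes, 0.12 for the 10 B lymphocyte genes, -0.09 for the 5 tested mast cell members, -0.34 for the 8 further mast cell genes tested and -0.26 for the 5 eosinophil genes tested. Over all genes it was 0.03, with 5th and 95th percentiles of -0.60 and 0.63. Plasma cell genes ranged from -0.76 to 0.93, so the list was not uniform. The further mast cell genes ranged from -0.49 to 0.66 and the eosinophil genes from -0.65 to 0.44, the last value being that of *Il5ra*. *Mzb1*, a chaperone for antibody assembly, had 0.81 and *Tnfrsf17*, the survival receptor BCMA of plasma cells, 0.66, while *Xbp1*, which drives the secretory program in many cell types, had -0.20. Of the mast cell members, *Kit* had 0.60, *Mcpt4* -0.02, *Cma1* -0.14 and *Hdc* -0.29. Without HPβCD animal 1 the value for *Mzb1* was 0.54 and for *Kit* 0.27. The 5 genes most like *Prg2* among 12610 with at least 1 CPM in both groups were *Snhg17* (0.97), *Strap* (0.97), *Hps6* (0.93), *Cir1* (0.93) and *Mrpl23* (0.93), none of them on any of the 16 lists. They encode a host RNA of small nucleolar RNAs, a scaffold protein of RNA and kinase complexes, a factor for lysosome-related organelles, a corepressor and a mitochondrial ribosomal protein. The floor of 1 CPM kept out genes that fell as low as *Prg2*, which averaged 0.511 CPM over HPβCD animals. Among those kept out was *Bhlha15*, at 0.285 CPM over HPβCD animals, whose r of 0.9322 lay above the 0.9320 of *Hps6*. That none of the 5 was on a list therefore depended in part on the floor.

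Within a library, the number of *Prg2* reads per read of another gene does not depend on scaling. These ratios use the fall by which *Prg2* was chosen, so that they tend to overlap between groups for a gene that fell too or varied widely, and to separate for one that did not. They are a description of sizes and no sign of a shared source. Per 1000 *Jchain* reads there were 3.45, 2.06, 3.76 and 6.46 *Prg2* reads in vehicle animals 1 to 4 and 5.02, 5.98, 7.53 and 3.52 in HPβCD animals 1 to 4. The ranges overlapped. Per *Bhlha15* read there were 1.61, 1.99, 1.29 and 1.87 *Prg2* reads in vehicle and 1.54, 2, 3.5 and 1.67 in HPβCD libraries, and in the summed reads of each group the ratio was 1.66 (466 to 281) and 1.80 (36 to 20). These ranges overlapped too, with only 2, 2 and 3 *Bhlha15* reads in HPβCD animals 2, 3 and 4 and a counting interval that reached 34.5 in animal 3. Per *Tnfrsf17* read *Prg2* ranged from 1.85 to 5.15 in vehicle and from 0.467 to 1.25 in HPβCD libraries, and per *Cpa3* read from 0.994 to 3.76 and from 0.0889 to 0.455, without overlap in either case.

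Counted over the lists, among genes with more than 3 reads in every library, the ratio overlapped between groups for 8.87% of all 14449 genes, 2 of 15 plasma cell genes (*Jchain* and *Eaf2*, a transcription elongation factor), 6 of 10 B lymphocyte genes, 0 of 5 mast cell members, 0 of 8 further mast cell genes and 2 of 5 eosinophil genes. *Bhlha15* and *Il5ra* are not in that count because of their low reads. For neuron genes the ratio overlapped in 6 of 6. Nothing about the lists can be read from these shares beyond the fall and spread of their genes.

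**Figure D3:**
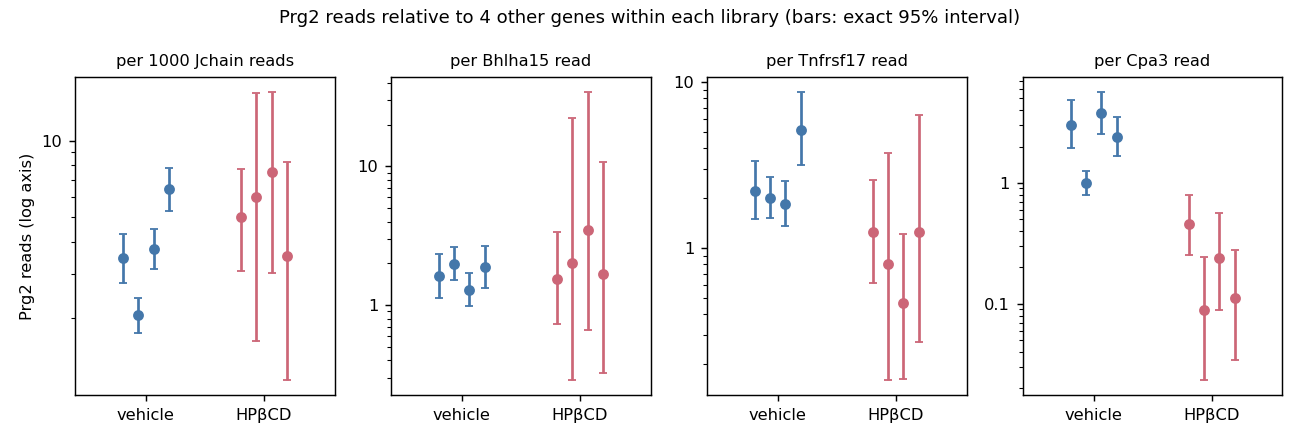
*Prg2* reads per 1000 *Jchain* reads and per read of *Bhlha15*, *Tnfrsf17* and *Cpa3* in each library (log axes), with exact 95% intervals that cover counting error only. Blue points are vehicle animals 1 to 4 and red points HPβCD animals 1 to 4. The groups overlap for *Jchain* (2.06 to 6.46 and 3.52 to 7.53) and *Bhlha15* (1.29 to 1.99 and 1.54 to 3.5), and separate for *Tnfrsf17* and *Cpa3*.

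The plasma cell and B lymphocyte genes themselves were lower after HPβCD in part. Over all tested genes edgeR called 1.95%, with 0.774% lower, and the median log2 fold change was -0.045. DESeq2 called 17.9% of the genes it adjusted. Of 16 plasma cell genes 4 were called lower by edgeR (8 by DESeq2) and 0 higher, with a median log2 fold change of -1.29. By sign alone 12 of the 16 were lower and 4 higher. Among the higher were *Sdc1*, the plasma cell marker CD138, at 0.41 (SE 0.26, adjusted p = 0.339 by edgeR), and *Slamf7* at 0.33. The abundant *Txndc5* and *Xbp1* had -0.073 and -0.28. *Jchain* was at 1341, 2179, 1993 and 856 CPM in vehicle and at 228, 40.9, 49.7 and 78.7 CPM in HPβCD animals, a log2 fold change of -4.0 (SE 0.64, adjusted p = 0.0462 by edgeR). *Bhlha15* fell by 3.57 on the log2 scale (SE 0.63, adjusted p = 0.0483 by edgeR). *Pou2af1*, a coactivator of antibody genes, fell by 1.57, and *Tnfrsf13b*, the receptor TACI of B cells and plasma cells, fell by 1.22 (adjusted p = 0.0483 by edgeR for both). The value of *Tnfrsf17* was -2.05 (edgeR adjusted p = 0.0722). Among 10 B lymphocyte genes edgeR called 4 lower and 0 higher (DESeq2 9 lower and 1 higher), with a median of -1.92. The 4 were *Cd79a* and *Cd79b*, the signaling chains of the B cell receptor, the kinase *Blk*, and *Fcer2a*, the low-affinity IgE receptor of B cells.

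Over all lists 11 genes were called, with an adjusted p by edgeR of 0.0222 for *Mlana* and of 0.0462 to 0.0485 for the others. The count dropped to 0 when any 1 of vehicle animals 1 and 4 or HPβCD animals 2 and 3 was left out. Without HPβCD animal 1 or HPβCD animal 4 there were 2, without vehicle animal 3 there were 21 and without vehicle animal 2 there were 10. *Jchain*, *Bhlha15* and *Adgre4* kept their direction in each of these 8 fits.

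**Figure D4:**
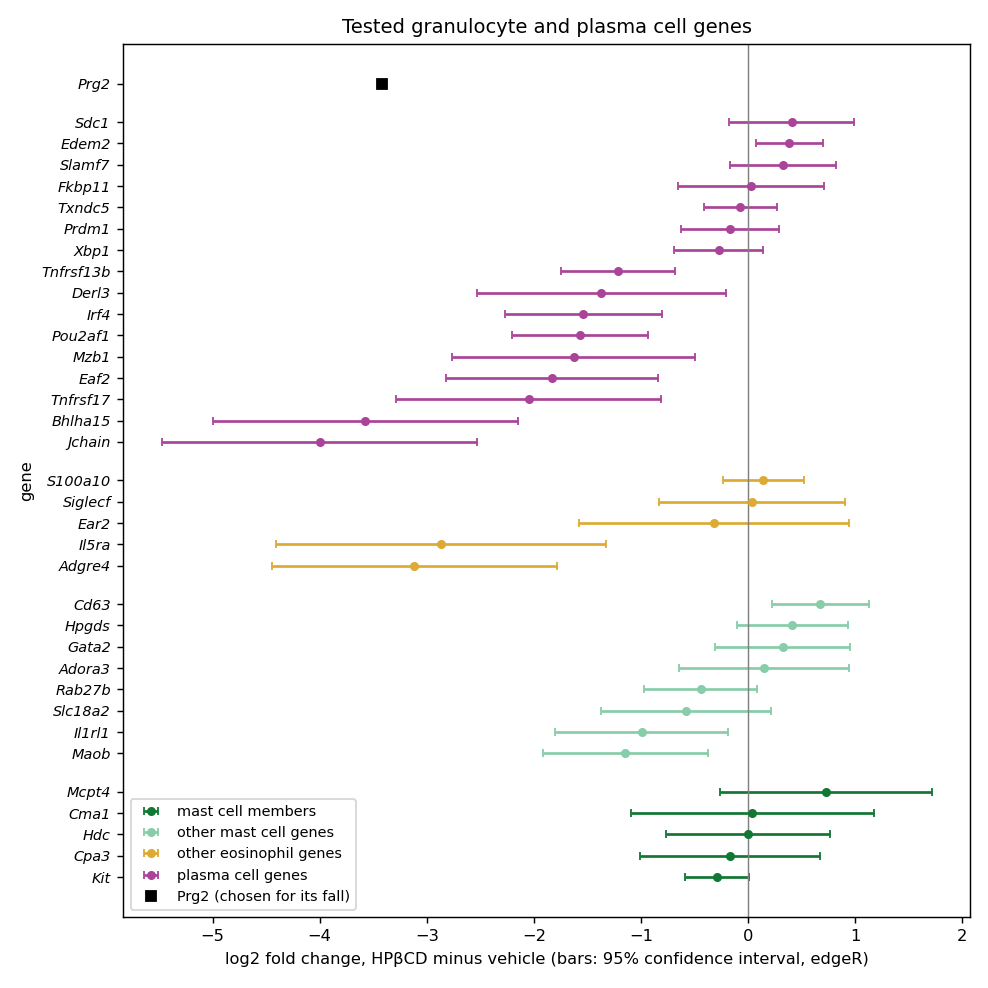
Log2 fold change (HPβCD minus vehicle) of the tested mast cell members, further mast cell genes, eosinophil genes and plasma cell genes, each with its 95% confidence interval from edgeR (n = 4 per group). *Prg2*, at -3.42, was chosen for its fall and is drawn without an interval. The intervals of the 5 mast cell members include 0, and *Jchain* and *Bhlha15* lie at -4.0 and -3.57.

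Genes that act with the granule genes showed few calls by edgeR and more by DESeq2, as did the tested genes as a whole. Of all genes edgeR called 1.95%, and DESeq2 called 17.9% of those it adjusted. These shares are the scale for the counts of each list that follows. Of 19 further mast cell genes 8 were tested and none was called by edgeR, with 4 higher, 4 lower and a median log2 fold change of -0.15. DESeq2 called 1 higher and 1 lower. *Cd63*, a membrane protein of granules and lysosomes in many cells, had 0.67 (SE 0.20, adjusted p = 0.0852 by edgeR) and *Hpgds*, the prostaglandin D2 synthase of mast cells that microglia also express, 0.41 (SE 0.23, adjusted p = 0.277 by edgeR). *Mcpt1*, a chymase of mucosal mast cells, was at 0 in every library, and *Mcpt2* had 2 reads in 1 library. *Tpsab1*, the second tryptase, had 3 reads, all in vehicle animal 2. Of the basophil genes *Mcpt8* had at most 5 reads, and 0 of 3 tested were called by edgeR or DESeq2 (median -0.41).

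Some growth factors and receptors of these cells were abundant by comparison, and others were not. Of the 10 growth factors and chemoattractants, 3 had at most 3 reads in every library, 1 of them 0 in all. Among the receptors *Il5ra* reached at most 4.15 CPM. *Kitl*, the ligand of *Kit*, averaged 133 ± 12.5 CPM over vehicle and 124 ± 26 CPM over HPβCD animals (SD, n = 4 each). The fitted difference was -0.10 on the log2 scale (SE 0.17, adjusted p = 0.757 by edgeR). *Il33*, an alarm cytokine that acts on mast cells, was at 166 ± 59.5 and 150 ± 4.28 CPM (-0.15, SE 0.27, adjusted p = 0.764 by edgeR). Of the 6 growth factors and chemoattractants tested edgeR called 0 and DESeq2 1 higher (median -0.11). Of the 9 receptors tested edgeR called 0, while DESeq2 called 4 higher and 1 lower (median 0.68). Among the receptors, *Fcer1g*, the signaling chain that the IgE receptor shares with other Fc receptors, was at 237 ± 29.0 and 380 ± 124 CPM (0.68, SE 0.23, adjusted p = 0.105 by edgeR). It thus stood far above *Fcer1a* and *Ms4a2*. *Csf2rb*, the common beta chain for interleukin 3, interleukin 5 and GM-CSF, had 0.51 (SE 0.21, adjusted p = 0.167 by edgeR).

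The machinery downstream of the receptor gave no call by edgeR. Of 18 genes of IgE receptor signaling all were tested, edgeR called 0, DESeq2 called 1 higher and 2 lower, and the median was 0.10. Of 14 granule storage and release genes edgeR called 0 and DESeq2 2 higher (median 0.30). In the histamine list edgeR called 0 of 5 tested genes and DESeq2 1 lower (median -0.58), and *Slc18a2*, the transporter that loads histamine into granules, was at 2.80 ± 0.23 and 1.88 ± 0.88 CPM (SD, n = 4 each; -0.58, SE 0.35, adjusted p = 0.317 by edgeR). Of 9 prostaglandin D2 and leukotriene genes 1 was called higher by edgeR and by DESeq2 (median -0.046). It was *Lta4h*, the hydrolase that makes leukotriene B4, which rose by 0.73 on the log2 scale, with means of 68.2 ± 4.89 and 113 ± 17.8 CPM (SE of the change 0.14, adjusted p = 0.0483 by edgeR).

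In lists of other cells edgeR called 0 of 6 neutrophil genes (DESeq2 1 higher, median 0.34) and 0 of 9 neuron genes (DESeq2 8 lower, median -5.85). *Snap25* had a log2 fold change of -6.48 with all 8 libraries and of 0.45 without vehicle animals 1 and 3. Of 5 melanocyte genes edgeR called 1 higher (DESeq2 1 higher and 1 lower, median 0.22). The gene called by edgeR was *Mlana*, a pigment cell antigen, which rose by 3.18 on the log2 scale (SE 0.28, adjusted p = 0.0222 by edgeR). The lists held 120 distinct tested genes, *Prg2* included. Over all lists edgeR had 57 genes at an unadjusted p under 0.05, DESeq2 56 and limma-voom 48. Over all 14736 tested genes edgeR had 4092, DESeq2 4237 and limma-voom 3408.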

How the data were processed

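Counts per gene were deposited by the authors for infarcts of 4 vehicle and 4 HPβCD mice, without normalization. Per the labels and methods, the authors made strand-specific libraries from polyadenylated RNA, sequenced paired ends, trimmed with Trimmomatic 0.32, aligned to GRCm38 with STAR 2.5.2b and counted with htseq-count. The strand option and annotation release are not given in the sources used here. Lines for reads assigned to no gene (26.6% to 36.6% of a library) were left out.

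Groups came from the labels, which give no batch. Genes kept by filterByExpr (14736) were tested with edgeR 4.0.16 in R 4.3.3 (robust quasi-likelihood F test, TMM, Benjamini-Hochberg adjustment, threshold 0.05). *Prg2* was fitted but not tested. Levels are CPM, with a prior count of 2 before taking log2. Intervals of counts are exact at 95% and, like the limit of 3 reads for a count of 0, cover counting error only. Each library stands for 1 animal. Alternatives used DESeq2 1.42.0, limma-voom (limma 3.58.1), other scalings, no filter, thinning, a block for animal number, and the omission of animals. The edgeR fit was tested on simulated data.

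The members and all 16 gene lists were chosen with earlier results of these data known. Of the lists, *Clc* and *Vamp7* had no match in the tables. Named are all members and, per list, called genes and up to 3 of the most abundant. By the same rule the 5 genes most like *Prg2* that reached 1 CPM in both groups are named. Genes named outside that rule are *Il5ra*, *Ccr3*, *Mzb1*, *Sdc1*, *Tnfrsf17*, *Eaf2*, *Gata2*, *Adora3*, *Maob*, *Il1rl1*, *Dct* and genes near 0 reads.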

Additional observations from a re-analysis of the deposited data

Results flagged for a closer look

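In 4 of 92 groups of 4 libraries searched, 1 library stood farther from the other 3 than is usual for a group of this size, and chance alone gives about 1 in 20 groups, or 4.6. *Tnfrsf13b* was at 3.16 (log2 CPM) in HPβCD animal 2, against 3.67 to 3.77 in the other HPβCD animals. *Lta4h* was at 5.93 in vehicle animal 3, against 6.13 to 6.16 in the other vehicle animals. The summed melanocyte genes were at 5.19 (log2 of summed CPM) in vehicle animal 3, against 6.10 to 6.28. The summed granule storage and release genes were at 11.38 in HPβCD animal 1, against 11.70 to 11.75.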

How the results depend on the processing

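The count of called genes, 287 of all and 11 in the lists, was 2619 and 43 with DESeq2, 65 and 3 with limma-voom, and 11 and 1 with library totals alone. Leaving out single animals gave 0 to 629 of all genes and 0 to 21 in the lists. The cause was not tested. *Prg2* was not tested, and none of the other members was called under any alternative. The log2 fold change of *Prg2* lay between -4.17 and -3.19 without single animals. The deviations of same-numbered animals had r of -0.26, 0.24, 0.33 and 0.10, too few values to settle whether the numbers pair them. With the animal number as a block 9 genes and 0 in the lists were called, with *Prg2* at -3.59.

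Directions near 0 turned. *Cma1* was -0.065 with library totals alone, -0.094 without vehicle animals 1 and 3, and from -0.21 to 0.49 without single animals. *Cpa3* ranged from -0.34 to 0.27 (the latter without vehicle animal 2). *Hdc* was 0.00 with DESeq2 (0.000986) and RLE scaling (0.00303), 0.025 without the filter, 0.15 when thinned, and from -0.37 to 0.15 without single animals. *Siglecf* was -0.059 with library totals alone, -0.20 without vehicle animals 1 and 3, and from -0.17 to 0.26 without single animals. *Ear2* ranged from -0.83 to 0.20 (without vehicle animal 2) and *Kitl* from -0.19 to 0.034 (without HPβCD animal 3), and *Snap25* was 0.45 without vehicle animals 1 and 3. The centered r of *Prg2* with *Cpa3* ranged from -0.49 to 0.12 and with *Jchain* from 0.08 to 0.87 without single animals, with *Jchain* at 0.10 in vehicle libraries only. The values without HPβCD animal 1 for *Bhlha15*, *Mzb1* and *Kit* were chosen after seeing the data. *Mcpt4* could not be fitted when thinned, since it no longer passed the filter. Members with few reads carry wide intervals.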
